A study of Mus musculus with 9 samples.

Results

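Immediate early response genes are transcribed within minutes of a stimulus, without new protein synthesis, and their mRNAs are short-lived. The 10 genes examined here were Fos, Fosb, Jun, Junb, Egr1, Atf3, Ier2, Ier3, Btg2 and Zfp36. They were listed by symbol, with earlier results of these data known. Each had a row among the 27179 genes of the deposited table. Their mRNA was measured by bulk poly(A) RNA-seq of flash-frozen liver (m-lobe) from 9 C57BL/6J mice. All mice carried the genotype WT, were kept on normal chow, and were injected retro-orbitally at 17 months of age with an AAV8 vector. The vector carried saCas9, a small Cas9 nuclease, under TBG, a promoter active in hepatocytes, and a guide RNA under U6. In 4 mice the guide was directed at Rosa26, a site commonly cut as a neutral control (sgRosa26, libraries A to D). In the other 5 it was directed at Ccnd1, which encodes cyclin D1, a driver of cell cycle entry (sgCcnd1, libraries E to I). Livers were taken 3 weeks after injection. The controls therefore also carried the nuclease and a cutting guide. The labels name no sex, batch or time of day of harvest.

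Most of these genes are switched on by growth factor, cytokine or stress signals that pass through MAP kinases to transcription factors already bound at their promoters. Fos, Fosb, Jun and Junb encode subunits of AP-1, a dimer held together by leucine zippers that contacts DNA through the adjacent basic regions. Egr1 encodes a zinc finger activator, Atf3 a stress-induced factor of the ATF/CREB family, and Zfp36 the protein tristetraprolin, which brings AU-rich mRNAs to decay. In liver these genes are known as part of the priming response after partial hepatectomy, and they also respond to feeding, stress and tissue handling.

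Promoter windows of 300 bases (250 before to 50 after the start site, RefSeq, build GRCm38.p6, the same assembly as the mm10 named in the submitters' processing notes) were found for 8 of the 10 genes. Egr1 and Ier2 had no entry. The 5 shown are Fos, with the smallest p in limma of the genes tested, Jun and Btg2, which were highest in the same library, and Junb and Zfp36, which shared another pattern. Capitals mark every match, on either strand, to the motifs named after the sequences. The windows lie at chr12:85473640-85473939 on the plus strand for Fos, and on the minus strand at chr4:95052173-95052472 for Jun, chr8:84978699-84978998 for Junb, chr1:134079106-134079405 for Btg2 and chr7:28379179-28379478 for Zfp36.
Fos promoter: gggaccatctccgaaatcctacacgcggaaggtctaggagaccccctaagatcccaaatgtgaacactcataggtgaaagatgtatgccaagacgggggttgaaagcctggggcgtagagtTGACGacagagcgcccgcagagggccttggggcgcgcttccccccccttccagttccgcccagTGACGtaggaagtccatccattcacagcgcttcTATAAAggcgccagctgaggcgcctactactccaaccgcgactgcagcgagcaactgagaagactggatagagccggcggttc
Jun promoter: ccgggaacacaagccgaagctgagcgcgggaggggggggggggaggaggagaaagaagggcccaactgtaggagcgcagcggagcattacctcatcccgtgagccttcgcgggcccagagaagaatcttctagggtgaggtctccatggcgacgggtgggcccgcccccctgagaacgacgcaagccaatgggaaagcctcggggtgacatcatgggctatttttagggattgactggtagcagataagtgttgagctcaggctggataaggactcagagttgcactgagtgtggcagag
Junb promoter: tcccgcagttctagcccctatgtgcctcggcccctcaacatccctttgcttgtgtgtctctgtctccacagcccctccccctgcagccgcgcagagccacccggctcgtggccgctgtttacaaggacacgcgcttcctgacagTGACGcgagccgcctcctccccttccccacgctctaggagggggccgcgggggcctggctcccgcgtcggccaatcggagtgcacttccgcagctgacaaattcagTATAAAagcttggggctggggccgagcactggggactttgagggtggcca
Btg2 promoter: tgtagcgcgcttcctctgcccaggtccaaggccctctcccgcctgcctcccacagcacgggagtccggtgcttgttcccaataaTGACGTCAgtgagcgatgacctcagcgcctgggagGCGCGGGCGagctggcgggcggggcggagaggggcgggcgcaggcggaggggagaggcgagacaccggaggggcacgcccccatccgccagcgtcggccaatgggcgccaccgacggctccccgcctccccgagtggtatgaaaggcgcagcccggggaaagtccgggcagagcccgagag
Zfp36 promoter: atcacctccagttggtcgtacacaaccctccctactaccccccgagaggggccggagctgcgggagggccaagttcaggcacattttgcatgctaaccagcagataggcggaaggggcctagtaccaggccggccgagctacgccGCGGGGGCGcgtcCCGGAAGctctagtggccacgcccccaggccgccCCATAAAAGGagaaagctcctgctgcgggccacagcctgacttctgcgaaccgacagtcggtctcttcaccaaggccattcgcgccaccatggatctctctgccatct

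Each motif was searched on both strands. The CArG box, bound by serum response factor, was matched in the Zfp36 window alone, from 58 to 49 bases before the start site, and in 1.63% of all 32851 windows. The full CREB site TGACGTCA was matched in the Btg2 window, 166 bases before the start site, and in 1.79% of all windows. The core of that site, TGACG, which lies within it and so overlaps it, was matched in 5 of the 8 windows (Fos, Fosb, Junb, Atf3 and Btg2), against 20.8% of all windows. The EGR site GCGNGGGCG was matched in 3 of 8 (Fosb, Btg2 and Zfp36), against 5.55% of all windows. An ETS site, CCGGAAG, was matched in the Zfp36 window and in 8.86% of all windows. The TATA element, TATAAA, was matched for Fos, 33 bases before the start site, and for Junb at the start site, against 13.6% of all windows. The AP-1 site TGANTCA was matched in 0 of the 8 windows and in 7.81% of all. The Jun window held none of these motifs. These matches describe letters in the windows and not occupied sites.

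Depth was 10.8 to 20.2 M (mega) reads per library, as recovered from the deposited normalized counts, which are gene-level reads scaled by a size factor for each library. Ccnd1, the targeted gene, stood at 744 ± 110 normalized counts in sgRosa26 (SD, n = 4) and 362 ± 40.6 in sgCcnd1 (SD, n = 5), without overlap (log2 fold change -1.03, limma adjusted p = 0.0116). Leaving out B, D, F, H or I raised the adjusted limma p of Ccnd1 above 0.05, to at most 0.0852, with log2 fold changes from -1.11 to -0.96 over the 9 libraries left out in turn. The 8 hepatocyte markers summed to 2.00 to 2.35 M normalized counts in sgRosa26 and 1.91 to 2.37 M in sgCcnd1, with 0 of them at an unadjusted limma p under 0.05. Library H of sgCcnd1 stood apart in Y-linked genes, where Ddx3y read 2.00 normalized counts and the remaining 8 libraries 809.9 to 1154. Without H, 0 of the 9 immediate early genes tested passed at an adjusted or unadjusted limma p of 0.05, and the largest move of a log2 fold change was 0.06.

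No immediate early gene passed the test between the groups. Of the 10 genes, 9 reached the mean of 10 normalized counts required for testing; Fosb did not. At a limma p adjusted over the 12993 genes tested, 0 of these 9 passed, and the background was 0.0077% of genes lower and 0% higher. At an unadjusted limma p under 0.05, 0 of 9 were lower and 0 of 9 higher, against 5.74% and 5.22% of all genes tested. The groups overlapped in all 10 genes, while 1.97% of genes tested lay lower in sgCcnd1 without overlap and 1.92% higher (3.89% either way). All 9 estimates were below 0, where 47.1% of all genes tested were, with a median log2 fold change of -0.37 against 0.01 over all genes. The 9 genes cannot be taken as independent of each other in these 9 livers. Junb at -0.01 changed sign with edgeR and DESeq2, Ier3 with quantile normalization and Ier2 without libraries C and G. Because whole liver was sequenced, fewer cells of a type and less RNA per cell cannot be told apart.

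**Figure D1:**
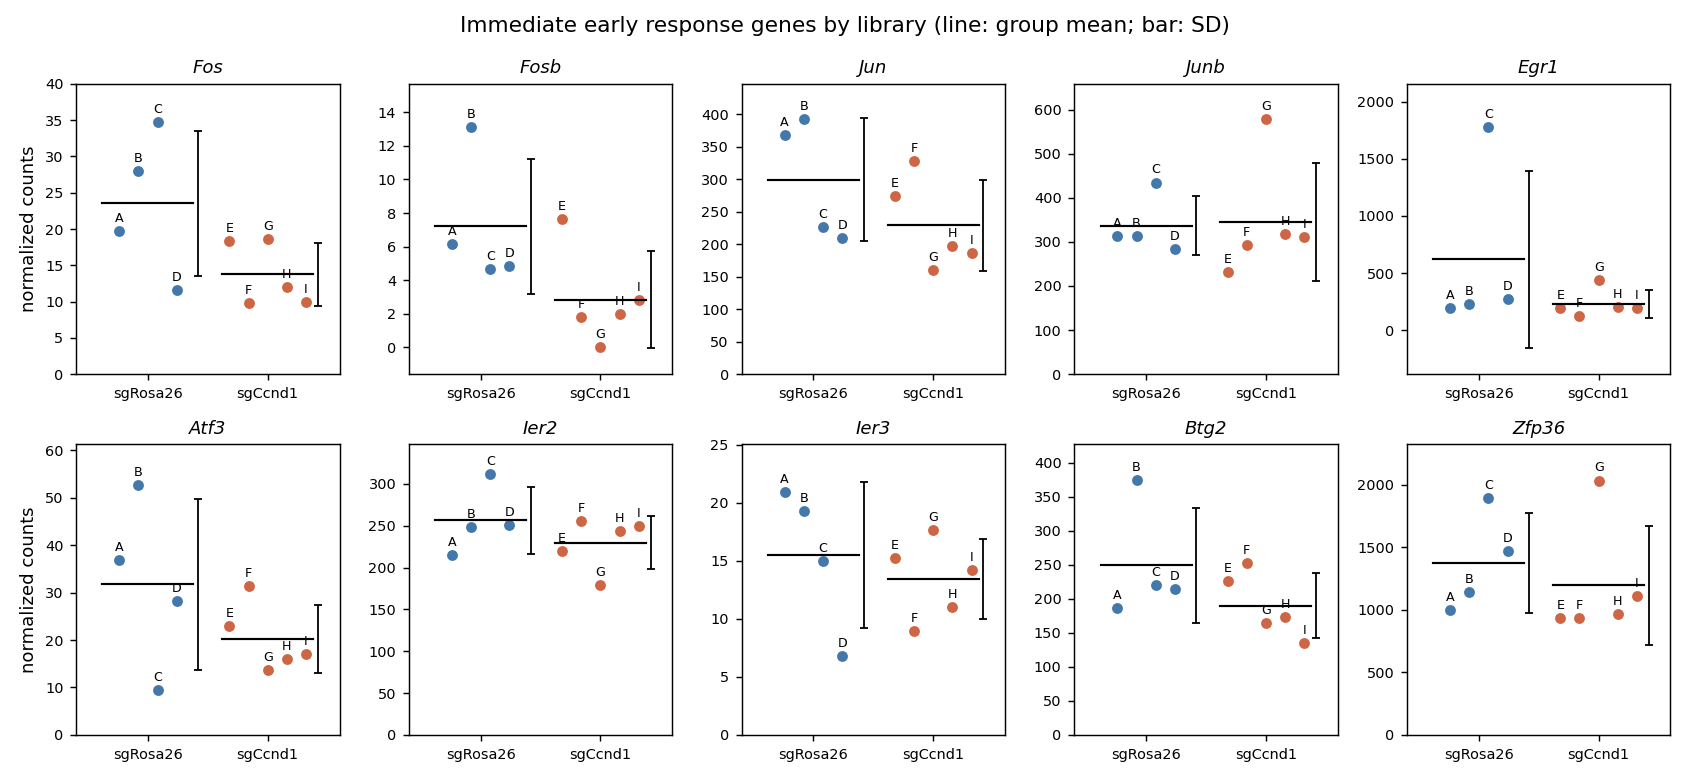
Normalized counts (y axis) of the 10 immediate early genes in each library, letters A to D for sgRosa26 (blue) and E to I for sgCcnd1 (orange); the horizontal line is the group mean and the vertical bar the SD. The groups overlap in every panel, Egr1 stands at 1781 in library C, and Junb and Zfp36 are highest in library G.

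The FOS subunits were low in this tissue. Fos (Entrez 14281, chr12:85473890-85477274) had 19.7, 28.0, 34.7 and 11.7 normalized counts in A to D and 18.3, 9.85, 18.6, 12.0 and 9.93 in E to I. Libraries A, B and C lay above all 5 sgCcnd1 libraries, and D lay among them. Its mean was 23.5 ± 10.0 in sgRosa26 (SD, n = 4) and 13.7 ± 4.39 in sgCcnd1 (SD, n = 5). The log2 fold change was -0.68 (95% interval -1.40 to 0.03, limma adjusted p = 0.474). Without library D the groups did not overlap and the estimate was -0.97 (limma adjusted p = 0.321); without C it was -0.47 (limma adjusted p = 0.655). Leaving out D, E or G each brought Fos under an unadjusted limma p of 0.05. On recovered reads Fos and Egr1 were lower at an unadjusted edgeR p under 0.05, where the background was 6.15% of genes lower and 4.42% higher. With DESeq2 only Fos was, against 5.49% of genes lower and 4.71% higher. The adjusted edgeR p of Fos was 0.445, and DESeq2 gave no adjusted p for Fos or Ier3. These values rest on 7 to 37 reads per library.

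Fosb (Entrez 14282, chr7:19302696-19310118), the closest relative of Fos, had 6.15, 13.1, 4.69 and 4.86 normalized counts in A to D and 7.62, 1.79, 0, 2.00 and 2.84 in E to I. Of the 5 sgCcnd1 libraries, 4 lay below every control and E lay second highest of all 9. Library G had 0 reads, which allows up to 3, and the highest count was 15 reads in B. With no filter on low values the log2 fold change was -1.31 (95% interval -2.44 to -0.17, limma adjusted p = 0.459). That scale understates changes at such levels, and the counts are too low for a firm order of the libraries.

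The JUN subunits were higher and did not share a pattern. Jun (Entrez 16476, chr4:95049036-95052222), the partner of FOS proteins in AP-1, had 368, 394, 227 and 209.8 normalized counts in A to D and 274, 328, 161, 197 and 186 in E to I. Libraries A and B were the highest of all 9, and G, H and I lay below every control. The log2 fold change was -0.38 (95% interval -0.89 to 0.13, limma adjusted p = 0.572). Without library B the estimate for Jun was -0.23, and without D or F it was -0.53 or -0.52, both at an unadjusted limma p under 0.05 (limma adjusted p = 0.443 and 0.438). Junb (Entrez 16477, chr8:84976909-84978748), which can restrain JUN activity, had 312, 314, 435 and 285 normalized counts in A to D and 232, 292, 578, 317 and 311 in E to I. Its highest value was in G and the next in C, 1 library of each group. The group means of Junb, 336 ± 66.9 (SD, n = 4) and 346 ± 134 (SD, n = 5), differed by less than either SD (log2 fold change -0.01, 95% interval -0.49 to 0.46, limma adjusted p = 0.989).

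Egr1 had the lowest estimate of the 9 genes tested, and library C made most of it. Egr1 (Entrez 13653, chr18:34861207-34864956) had 197, 231, 1781 and 277 normalized counts in A to D and 192, 123, 439, 199.9 and 196 in E to I. Library C exceeded the next highest library, G, 4.06-fold, and the mean of the other 3 controls 7.58-fold. The other 8 libraries ranged from 123 to 439 with the groups intermixed. The log2 fold change was -0.88 (95% interval -2.09 to 0.32, limma adjusted p = 0.578), and without C it was -0.15 (limma adjusted p = 0.894). With edgeR on recovered reads it was -1.45 (adjusted p = 0.422), and DESeq2 gave no p for this gene.

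**Figure D2:**
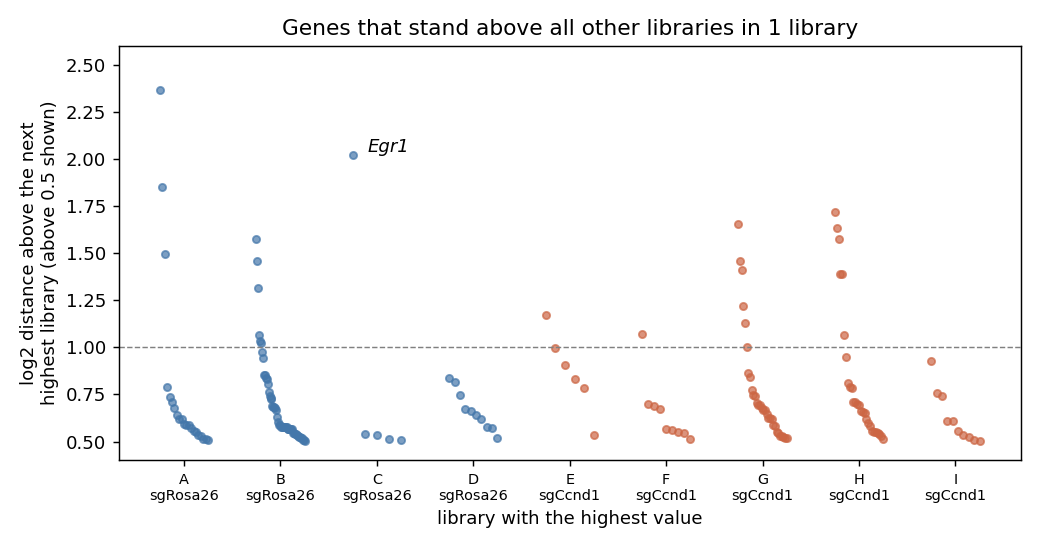
For each library (x axis), the genes that were highest there, placed by how far on the log2 scale they stood above the next highest library (y axis; distances above 0.5 shown, genes averaging 50 normalized counts or more). In library C 1 gene, Egr1 at 2.02, stands above 1, and the next gene is at 0.54.

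Among the 10411 genes averaging 50 normalized counts or more, Egr1 was the only gene more than 1 log2 unit above all other libraries in library C. The next gene there was Col13a1, at 0.54. In the other libraries between 0 and 6 genes exceeded 1 log2 unit in this way. Of the 10 genes, 6 were abundant enough for this comparison (Jun, Junb, Egr1, Ier2, Btg2 and Zfp36), and of these Egr1 alone exceeded it in any library. Measured directly, with no minimum level, Fos and Ier2 were also highest in C, 0.30 and 0.28 log2 units above the next library. Atf3 was at its lowest there.

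Atf3, induced by amino acid shortage, ER stress and injury signals, was scattered in the controls. Atf3 (Entrez 11910, chr1:191170296-191183333) had 36.9, 52.6, 9.39 and 28.2 normalized counts in A to D and 22.9, 31.3, 13.7, 16.0 and 17.0 in E to I. The control group thus held both the highest value, in B, and the lowest, in C, and no sgCcnd1 library lay outside it. The log2 fold change was -0.46 (95% interval -1.36 to 0.44, limma adjusted p = 0.702). Without C it was -0.94, at an unadjusted limma p under 0.05 (limma adjusted p = 0.344), and without B it was -0.15 (limma adjusted p = 0.944).

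The IER genes are small early response genes. Ier2 (Entrez 15936, chr8:84661331-84662852), whose product is a nuclear regulator of transcription, had 215, 248, 312 and 251 normalized counts in A to D and 219.6, 256, 179, 244 and 249.8 in E to I. Ier2 had the least spread of the 9, and its log2 fold change was -0.16 (95% interval -0.45 to 0.13, limma adjusted p = 0.685). Without library C it was -0.06, without G -0.07 and without A -0.24. Ier3 (Entrez 15937, chr17:35821713-35822911), which modulates cell survival, had 20.9, 19.3, 15.02 and 6.80 normalized counts in A to D and 15.2, 8.95, 17.6, 10.995 and 14.2 in E to I. All 5 sgCcnd1 values of Ier3 lay within the control range (log2 fold change -0.13, 95% interval -0.85 to 0.60, limma adjusted p = 0.920).

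The growth and mRNA decay regulators overlapped as well. Btg2 (Entrez 12227, chr1:134074865-134079155), an antiproliferative adaptor that recruits deadenylases and is also a known p53 target, had 187, 374, 221 and 215 normalized counts in A to D and 226, 252, 164, 173 and 135 in E to I. Library B stood alone at the top, and G, H and I lay below every control. The log2 fold change of Btg2 was -0.37 (95% interval -0.84 to 0.10, limma adjusted p = 0.544), and without B it was -0.16. Without A or F it was -0.49 or -0.48, both at an unadjusted limma p under 0.05. Zfp36 (Entrez 22695, chr7:28376784-28379228) had 999.6, 1139, 1895 and 1468 normalized counts in A to D and 935, 938, 2035, 968 and 1108 in E to I. Libraries G and C were its highest, and E, F and H lay below every control. The log2 fold change of Zfp36 was -0.23 (95% interval -0.74 to 0.28, limma adjusted p = 0.746). Without G it was -0.44, at an unadjusted limma p under 0.05 (limma adjusted p = 0.480), without A -0.37 and without C -0.06.

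**Figure D3:**
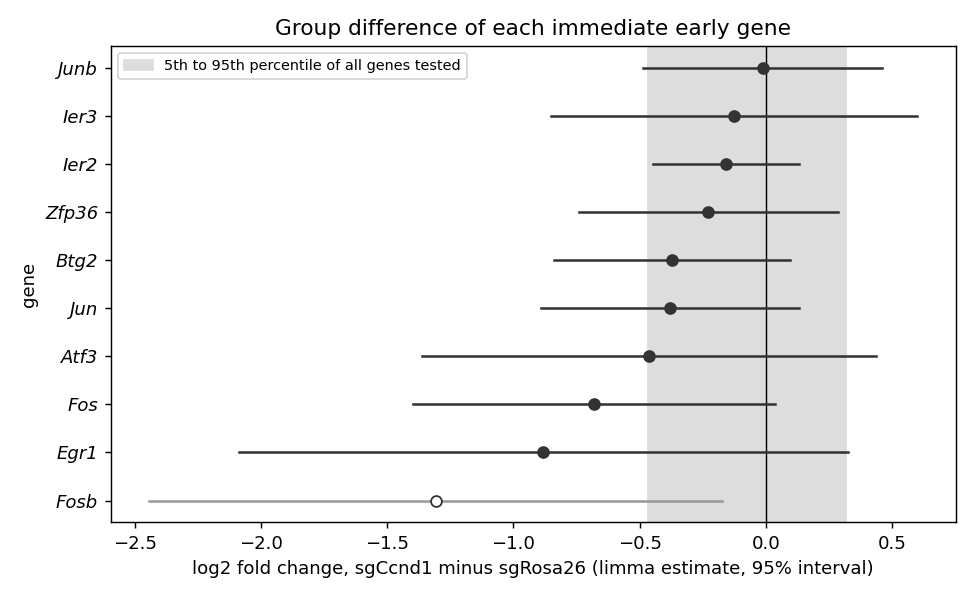
Log2 fold change of each gene, sgCcnd1 minus sgRosa26 (x axis), with its 95% interval; the open circle is Fosb, fitted without the filter on low values, and grey marks the 5th to 95th percentile of all genes tested (-0.47 to 0.32). The intervals of the 9 filled circles include 0, from Egr1 at -0.88 to Junb at -0.01.

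Differences between animals of the same group were larger for most of these genes than for the typical gene. The SD of log2 values around the group means was 0.20 in the median gene tested. It was 1.09 for Egr1, above 99.5% of genes tested, 0.75 for Atf3 (98.3%), 0.54 for Fos (94.4%) and 0.52 for Ier3 (93.9%). Zfp36, Jun, Junb and Btg2 followed with 0.45, 0.44, 0.41 and 0.40, above 90.1%, 89.5%, 86.8% and 86.1% of genes. Ier2, at 0.21, lay near the median (55.1%). Single libraries carried much of this for several genes. Without C the SD was 0.56 for Egr1 (above 94.6% of genes) and 0.45 for Atf3 (89.3%). Without B it was 0.30 for Btg2 (76.1%). Without G it was 0.24 for Junb (61.3%) and 0.30 for Zfp36 (74.2%). Without D it was 0.32 for Ier3 (78.9%) and 0.42 for Fos (88.1%). Fos, Atf3 and Ier3 are low genes, whose counting error adds to this spread, while Egr1, Zfp36, Jun, Junb and Btg2 had 95 or more reads in every library.

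The genes did not follow 1 common order of libraries. Library B was the highest for 4 of the 10 genes (Fosb, Jun, Atf3 and Btg2), C for 3 (Fos, Egr1 and Ier2), G for 2 (Junb and Zfp36) and A for Ier3. Library G was also the lowest for 3 genes (Fosb, Jun and Ier2), so the same liver held the extremes in both directions. Libraries D, E, F, H and I were highest for none.

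**Figure D4:**
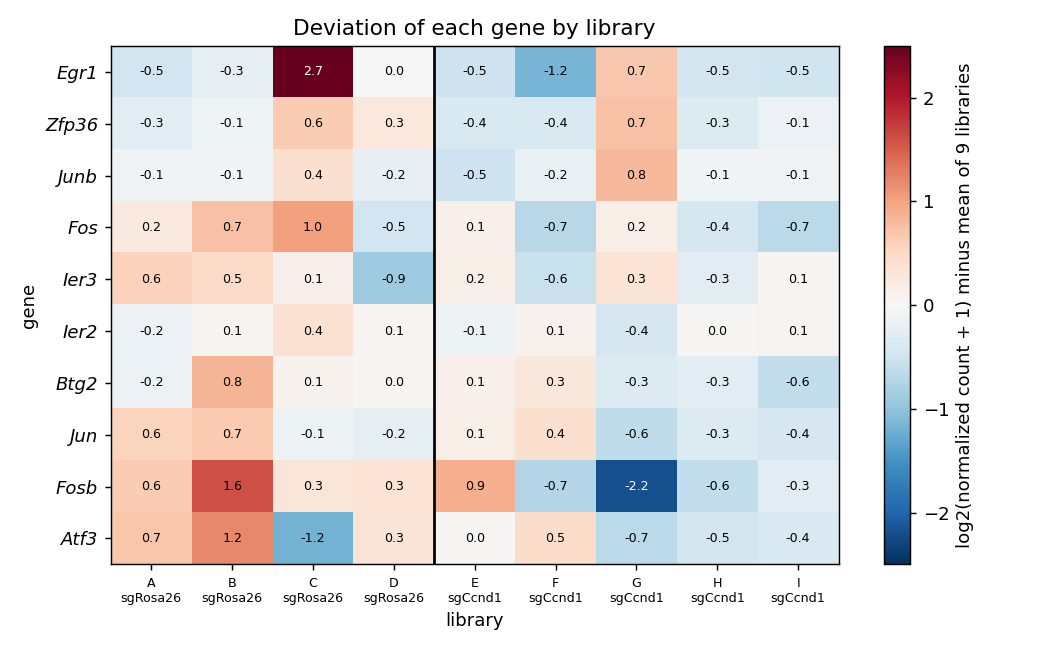
Heat map of log2(normalized count + 1) minus the mean of the 9 libraries, genes in rows and libraries in columns, with the vertical line between sgRosa26 and sgCcnd1. Egr1, Zfp36 and Junb are high in libraries C and G, while Jun, Fosb and Atf3 are low in G and high in A and B.

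Correlations over the 9 libraries were computed for the 36 pairs of the 9 genes tested. Pearson's r ranged from -0.66 to 0.83, with a median of 0.15; 6 pairs had an exact permutation p under 0.05 and 0 pairs passed after adjustment over the 36 (smallest adjusted p = 0.0907). Egr1 and Zfp36 had r = 0.82 (exact permutation p = 0.00252, adjusted p = 0.0907) and Spearman's rho = 0.90 (exact permutation p = 0.00203, adjusted p = 0.0730). Without C and G, the 2 libraries farthest from the median of Egr1, r was still 0.76. Junb and Zfp36 had r = 0.83 (exact permutation p = 0.00892, adjusted p = 0.140) and rho = 0.63 (exact permutation p = 0.0760, adjusted p = 0.342), but without C and G r was 0.16, so that relation rests on these 2 libraries. Jun and Atf3 had r = 0.80 (exact permutation p = 0.0116, adjusted p = 0.140) and rho = 0.78 (exact permutation p = 0.0172, adjusted p = 0.207), with r = 0.56 without A and B. Jun and Btg2 had r = 0.74 (exact permutation p = 0.0178, adjusted p = 0.161) and rho = 0.82 (exact permutation p = 0.0108, adjusted p = 0.194), with r = 0.82 without A and B. In deviations from the group means these 4 values of r were 0.81, 0.86, 0.77 and 0.67. The other 2 pairs under 0.05 involved Egr1. Fos and Egr1 had r = 0.69 (exact permutation p = 0.0237, adjusted p = 0.171) and rho = 0.63 (exact permutation p = 0.0760, adjusted p = 0.342), but r was 0.15 without C and F. Egr1 and Atf3 went in opposite directions, with r = -0.66 (exact permutation p = 0.0458, adjusted p = 0.275) and rho = -0.47 (exact permutation p = 0.213, adjusted p = 0.636), but r was 0.08 without C and G. Both relations rest on the libraries left out. In deviations from the group means these 2 values of r were 0.61 and -0.93.

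The genes nearest in pattern to the mean z-score of the 9 genes, by Pearson's r over the 9 libraries and among 10261 candidates outside the lists, were Hmcn2 (0.93), Plek (0.93), Tpm3 (0.91), Plekho2 (0.90) and Slc43a3 (0.89). On deviations from the group means the nearest 5 were Rbm12b1 (0.96), Ddo (0.94), Mcm4 (0.94), 2610528J11Rik (0.93) and Nkiras2 (0.93). The mean itself lay closer to Fos (r = 0.92) than to Atf3 (0.11) or Ier2 (0.28). Each of these genes is part of that mean, which raises its r. With this many candidates values near 0.9 can arise for many profiles, which was not tested here.

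Related genes outside the 10 were read from the same fit, in which 47.1% of all genes tested were below 0, 5.74% were lower and 5.22% higher at an unadjusted limma p under 0.05, and 1.97% lay lower and 1.92% higher without overlap. Of 8 other AP-1, ATF and small Maf factors tested of 12 listed, 3 were below 0 and 5 above, with a median log2 fold change of 0.07 and 0 at an unadjusted limma p under 0.05. The most abundant were Jund, an AP-1 subunit expressed without induction (1652 ± 122 normalized counts in sgRosa26, SD, n = 4; 1624 ± 409 in sgCcnd1, SD, n = 5), the CREB-family factor Atf2 (log2 fold change 0.20) and the small Maf factor Mafg (0.13). Without library A, Mafg was at 0.02, and Atf2 was at 0.13 without B and 0.27 without A, the latter at an unadjusted limma p under 0.05 (limma adjusted p = 0.335). Fosl1 was listed at 0 in all 9 libraries. Among 13 other immediate early transcription factors tested of 18 listed, 9 were below 0 (47.1% of all genes), with a median of -0.21. Of the 13, 3 were lower at an unadjusted limma p under 0.05 (5.74% of all genes) and 0 after adjustment: Myc (-0.75, limma adjusted p = 0.395), Nr4a1 (-0.69, limma adjusted p = 0.437) and Klf2 (-0.41, limma adjusted p = 0.372). Each of these 3 unadjusted calls was lost when some single libraries were left out. Klf2, which endothelial cells and lymphocytes also express, was the one gene of this list whose groups did not overlap (1.97% of all genes lower). Its 3 most abundant members were Cebpb, a liver-enriched factor (0.32), Nfil3, a repressor of the bZIP family (-0.15), and Klf10, induced by TGF-beta (0.59), none past an unadjusted p of 0.05. Cebpb was at 0.19 without library A, and at 0.45 without D and 0.42 without I, both at an unadjusted limma p under 0.05. Without library A, where it stood at 631 normalized counts, Klf10 was at 1.004 on the log2 scale, past an unadjusted limma p of 0.05 (limma adjusted p = 0.139).

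Of 18 other early response effectors, 11 were below 0 (47.1% of all genes; median -0.10), 3 were lower at an unadjusted limma p under 0.05 (5.74% of all genes) and 0 after adjustment. These were the small GTPase gene Rhob (-0.39, limma adjusted p = 0.271), the kinase gene Sgk1 (-0.58, limma adjusted p = 0.433) and the p53-responsive Gadd45a (-0.53, limma adjusted p = 0.358). Without library A, Sgk1 was at -0.32; of the 3, Rhob alone stayed under 0.05 whichever single library was left out. The most abundant were the EGFR inhibitor Errfi1 (log2 fold change 0.05), the survival factor Mcl1 (0.12) and Btg1, a relative of Btg2 (0.03). Of 14 feedback inhibitors tested of 16 listed, 8 were below 0 (median -0.04). The phosphatase gene Dusp10, which acts on stress-activated MAP kinases, was lower at an unadjusted limma p under 0.05 (log2 fold change -0.68, limma adjusted p = 0.2498). The DESeq2 adjusted p of Dusp10 was 0.0418, and 0.159 without library H. Dusp1, Dusp6 and Nfkbia, the most abundant of that list, were at 0.02, -0.19 and 0.04.

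Upstream, 10 of 23 MAP kinase pathway genes were below 0 and 13 above, with a median of 0.03. Egfr, the EGF receptor, was at 4186 ± 2016 normalized counts in sgRosa26 (SD, n = 4) and 7095 ± 1687 in sgCcnd1 (SD, n = 5), which gave 0.86 on the log2 scale (limma adjusted p = 0.334). Of 11 serum response and CREB factors, 6 were below 0 and 5 above (median -0.01). Creb1 (0.25, limma adjusted p = 0.354) and Crem (0.47, limma adjusted p = 0.253), both of the CREB family, were higher without overlap (1.92% of all genes), and neither passed the adjustment in limma. Crem had a DESeq2 adjusted p of 0.0499, and 0.172 without library H. The coactivator genes Ep300 and Crtc2 and the factor gene Atf1 were at 0.14, -0.10 and -0.05. Among 13 relatives of Zfp36 and Btg2 and deadenylase subunits tested of 15 listed, 4 were below 0 (median 0.13) and 0 had an unadjusted limma p under 0.05. Zfp36l1, a paralog of Zfp36, was at -0.22, the antiproliferative Tob1 at -0.05 and the deadenylase scaffold Cnot1 at 0.13. Cnot1 was at 0.26 without library A and 0.01 without B, and Zfp36l1 at -0.14 without E, and at -0.28 without B and -0.26 without I, both at an unadjusted limma p under 0.05. Cnot7, a catalytic deadenylase subunit, was higher without overlap (1.92% of all genes; log2 fold change 0.17, limma adjusted p = 0.465).

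**Figure D5:**
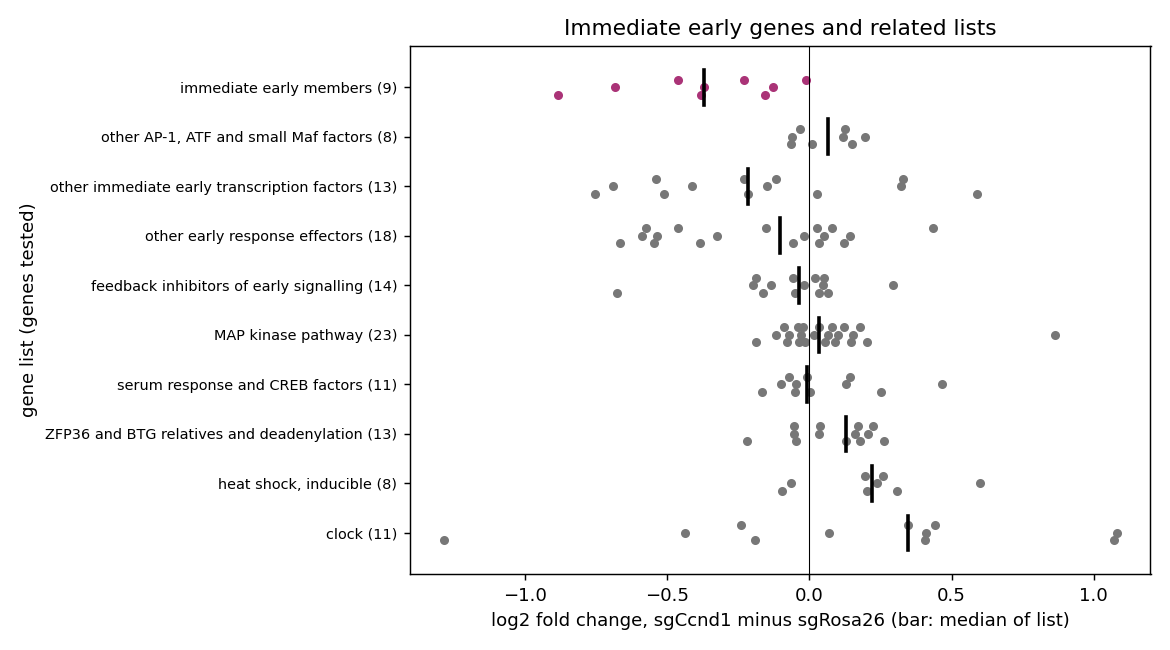
Log2 fold change, sgCcnd1 minus sgRosa26 (x axis), of each gene tested in the immediate early list (purple) and 9 related lists (grey); the black bar is the median of a list and the number of genes tested stands in brackets. The median is -0.37 for the immediate early genes, 0.07 for other AP-1 factors, -0.21 for other immediate early factors and 0.35 for clock genes.

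Clock and heat shock genes were read beside these values. Of 11 clock genes, 2 were lower and 5 higher at an unadjusted limma p under 0.05 (5.74% and 5.22% of all genes) and 0 passed the adjustment in limma. With DESeq2, Npas2 passed it (log2 fold change -1.29, adjusted p = 0.00340), also without library H (-1.31, adjusted p = 0.0126). Npas2 was at 116 ± 42.3 normalized counts in sgRosa26 (SD, n = 4) and 47.3 ± 16.8 in sgCcnd1 (SD, n = 5), and Dbp at 203 ± 113 and 408 ± 138. The most abundant clock genes, Nr1d1, Nr1d2 and Tef, were at 0.41, 0.44 and 0.41 on the log2 scale. Nr1d1 was at 0.25 without library B, and lost its unadjusted call without A, B, G, H or I. Of 8 inducible heat shock genes tested of 9 listed, 6 were above 0 (median 0.22) and 3 were higher at an unadjusted limma p under 0.05 (Hspa1b, Hsph1 and Hspd1), against 5.22% of all genes. Hspa1b was at 0.60, and at 0.35 without library B; of the 3, Hspd1 alone stayed under 0.05 whichever single library was left out. The abundant chaperone genes Hspd1, Hspa8 and Hspe1 were at 0.26, 0.20 and -0.09. Hspa8 was at 0.12 without library B, and at 0.26 without A and 0.27 without I, both at an unadjusted limma p under 0.05.

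Markers of monocytes and neutrophils, T and NK cells, and B and plasma cells had estimates below 0, as the immediate early genes did, where 47.1% of all genes were below 0 and 5.74% lower at an unadjusted limma p under 0.05. The 6 monocyte and neutrophil markers summed to 1095 to 1293 normalized counts in sgRosa26 and 796 to 952 in sgCcnd1, and all 6 were below 0 (3 at an unadjusted limma p under 0.05). The 6 T and NK cell markers summed to 77.5 to 195 and 41.98 to 139, with 4 of 4 tested below 0 and at an unadjusted limma p under 0.05 (Cd3e, Cd8a, Cd4 and Nkg7, of which Cd3e alone stayed there whichever single library was left out), and the 6 B and plasma cell markers to 228 to 451 and 171 to 412, with 6 of 6 below 0 (Mzb1 at an unadjusted p under 0.05). None of these immune markers passed the adjustment in limma; with DESeq2 1 did, the myeloid lysozyme gene Lyz2 (log2 fold change -0.44, adjusted p = 0.00203; without library H -0.49, adjusted p = 0.00103). Stellate markers summed to 3425 to 5685 and 3118 to 4668 (5 of 6 below 0, Col1a1 and Col3a1 at an unadjusted limma p under 0.05), and cholangiocyte markers to 928 to 1906 and 749.7 to 1165 (3 of 5 below 0, Sox9 at an unadjusted p under 0.05). Col1a1 lost that call without A, B, C, G, H or I, Col3a1 without B and Sox9 without A. Kupffer cell markers (1725 to 2612 and 1729 to 2266), endothelial markers (1844 to 2828 and 2076 to 2970) and the 4 red cell markers found (1159 to 2436 and 1893 to 2179) overlapped widely, with 3 of 6, 4 of 6 and 2 of 4 below 0. No marker was at 0 in all libraries. The part of the clock, heat shock and cell type measures in the values of the immediate early genes was not tested.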

How the data were processed

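Bulk poly(A) RNA-seq of 9 mouse livers was deposited as 1 table of normalized counts per Entrez gene, a never-negative signal that the authors obtained by dividing gene counts by 1 size factor per library. The submitters' processing notes name Trim Galore 0.6.7, HISAT2 2.2.1, featureCounts 2.0.3, DESeq2 and mm10 (GRCm38). The annotation and use of strand are not given in the sources used here, so overlapping or antisense genes cannot be told apart. Column names show the guide and an animal number that the labels do not use; they therefore fix the group but not the replicate, and A to I follow column order. Whole reads were recovered for 100% of values in each library (tolerance 0.001 of a read).

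Genes averaging 10 normalized counts or more (12993 of 27179) were tested with limma 3.58.1 in R 4.3.3 (lmFit and eBayes with trend, two-sided, no covariates) on log2(normalized count + 1), which understates changes of low genes. The Benjamini-Hochberg adjustment covered every gene tested, with a threshold of 0.05. edgeR 4.0.16 (quasi-likelihood) and DESeq2 1.42.0 were run on the recovered reads. Alternatives were pseudocounts of 0.1 and 10, quantile and 75th percentile scaling, filters at a mean of 100 or none, robust eBayes, array weights and leaving out each library. The fits were also run on simulated counts, and no result given here rests on that run. Reads carry no molecular identifiers, and the range given for Fosb at 0 reads covers counting error only. The rule for names was: the 10 genes, Ccnd1, and of each related list the 3 most abundant members and any past the threshold; some genes under this rule are not reported here. Other genes named, those at an unadjusted p under 0.05 among them, were chosen after their values were seen. Of the list genes, Hbb-bt was not matched. The genes and lists were chosen with earlier results of these data known.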

Additional observations from a re-analysis of the deposited data

Results flagged for a closer look

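Values far from the rest of their group were looked for in 72 groups of values, and 7 were found, where chance was set at about 3.6. That chance count was not checked on these values. Of the 7, 4 were among the 20 groups of the immediate early genes. No chance count for these 20 groups and no share over all genes was computed. Egr1, Junb, Zfp36 and Mcl1 were all flagged in library G, so these values cannot be taken as independent of each other. Egr1 in library C of sgRosa26 reached 1781 normalized counts, while the remaining controls lay between 197 and 277. In library G of sgCcnd1, Egr1 was at 439 (rest of its group 123 to 199.9), Junb at 578 against 232 to 317, and Zfp36 at 2035 against 935 to 1108. Mcl1 was also highest in G, at 1753 against 1351 to 1463. Klf10 was highest in library A among the controls, at 631 against 181 to 212. Hspa8 was lowest in library I of sgCcnd1, at 7772 against 9509 to 10213.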

How the results depend on the processing

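At an adjusted p of 0.05, 0 immediate early genes passed under the 23 alternatives wherever an adjusted p was given. Of 204 values of these genes, 7 had no adjusted p, all with DESeq2 (Fos, Egr1 and Ier3, and Atf3 without H). Of the other 197, 183 kept their direction and side of the threshold and 14 changed sign. At an unadjusted p under 0.05, 1 gene, Fosb, was lower with no filter (5.34% of all genes tested). The count was 2 with edgeR TMM (6.15%), 2 with edgeR RLE (6.03%) and 1 with DESeq2 (5.49%). It was 1 without C and G (4.58%), and 0 to 2 leaving out each library (4.09% to 7.10%). Genes without overlap numbered 0 to 1 when each library was left out, against 4.68% to 8% of all genes in either direction. Over all genes, the count lower (1 in limma) came to 76 with DESeq2 (25 without H), 2 after quantile normalization, 0 with edgeR without H, 0 without C and G, and 0 to 2 leaving out each library. The count higher (0 in limma) was 41 with DESeq2 and 16 without H. Ccnd1 was at -1.02 (adjusted p = 0.0559) with edgeR without H and -1.12 (adjusted p = 0.0537) without C and G, and from -1.11 to -0.96 leaving out each library. Fits leaving out H from edgeR and DESeq2, or C and G, were chosen after seeing the data.

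Changes of sign were as follows. Junb was at 0.0257 with edgeR TMM, 0.0303 with edgeR RLE, 0.0321 with DESeq2, 0.0561 with edgeR without H, 0.0634 with DESeq2 without H, and -0.22 to 0.12 leaving out each library. Ier2 was at 0.0272 without C and G. Ier3 was at 0.0494 with quantile normalization and -0.45 to 0.0442 leaving out each library. Without C and G, Jund was at 0.0049, Errfi1 at -0.10, Btg1 at -0.10, Nfkbia at -0.0608 and Tob1 at 0.025. With quantile normalization, Errfi1 was at -0.0047, Btg1 at -0.0069 and Nfkbia at -0.0034. Without H, Errfi1 was at -0.0519 with edgeR and -0.0462 with DESeq2. Dusp1 was at -0.0044 with 75th percentile scaling. Leaving out each library gave -0.15 to 0.0439 for Jund, -0.11 to 0.26 for Errfi1, -0.0425 to 0.14 for Btg1, -0.15 to 0.15 for Dusp1, -0.0723 to 0.10 for Nfkbia, -0.36 to 0.0735 for Dusp6, -0.0401 to 0.27 for Ep300 and -0.21 to 0.0186 for Hspe1. For genes named for their abundance with estimates near 0, leaving out 1 library often moved the value by over 1.5 times. The cause was not tested. No paired analysis was possible because column names do not show which replicate each library was. Fos, Fosb, Atf3 and Ier3 are limited by depth, with at most 60 reads per library.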
